A study of Mus musculus with 15 samples.

Results

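A set of 10 genes with roles in signalling, protein turnover and the membrane were followed across 4 genotypes of mouse fetal liver erythroid cells: Grap2, Pik3r1, Septin1, Icos, Dnaja4, Pdzk1ip1, Asb2, Btnl10, Prokr1 and Plaat3. They are 10 of the 19938 genes with a transcript cluster (the array's gene-level unit) of their own, and each of the 10 had 1 cluster. The genes were chosen by their lower signal in Klf3-deficient arrays, among the largest differences there. Grap2, Septin1 and Pik3r1 stood out in both Klf3-deficient genotypes. Dnaja4, Pdzk1ip1, Asb2 and Icos came from the Klf3-/- arrays against wild type, and Btnl10, Prokr1 and Plaat3 from the doubly mutant arrays against wild type. Their differences from wild type in those genotypes are therefore given as a description, with no test.

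The study hybridised RNA from TER119+ cells of E13.5 fetal liver, all on the FVB/NJ background, to 15 Affymetrix arrays. Of these, 4 were wild type, 4 carried the Klf8gt/gt genotype (a gene-trap allele of Klf8), 3 were Klf3-/- and 4 were Klf3-/- Klf8gt/gt, called doubly mutant here. Both Klf3-deficient groups share the Klf3-/- genotype, and both trap groups share Klf8gt/gt. TER119 marks maturing erythroid cells, and the cells were enriched on magnetic columns, so other cells of the liver can remain. The alleles are described by the labels only as genotypes, and whether each array is a separate embryo is not given there, so the spread between arrays may be partly technical. Litter-matching was done as far as the study could.

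Values are log2 signals, so a difference of 1 is a 2-fold difference. Array medians lay between 6.28 and 6.41. No detection calls come with the values, so no fold is given where the lower group's mean was below the array medians. The signal of Klf3 was not lower in arrays with the Klf3-/- genotype, at 11.32 ± 0.14 (SD, n = 3) and 11.37 ± 0.28 (SD, n = 4) against 10.27 ± 0.17 (SD, n = 4) in wild type. It therefore does not check the genotype labels, and which part of the gene its probes cover is unknown here. Klf8 signal was below the array medians in wild type and in Klf8gt/gt arrays (5.36 ± 0.18 and 5.39 ± 0.09, SD, n = 4 each), so these groups do not check the trap. Klf8 was at 8.71 ± 0.26 (SD, n = 3) in Klf3-/- arrays and at 7.29 ± 0.55 (SD, n = 4) in doubly mutant arrays. Those groups did not overlap, with 8.42 to 8.89 in Klf3-/- arrays and 6.85 to 8.04 in doubly mutant arrays, which carry the trap. The cells carried erythroid RNA in every group: all 12 measured erythroid markers of 15 listed were above the array medians, and their mean on an array ranged from 12.06 to 12.66. Hepatocyte markers were also high on every array, with means from 10.91 to 12.53.

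KLF3 and KLF8 are Krüppel-like factors, zinc finger proteins that bind CACCC-type DNA elements and repress transcription together with the co-repressor CtBP. KLF1, the erythroid member of the family, activates genes through the same type of element, and KLF1 drives the expression of Klf3 and Klf8 in red cell precursors. Signals from the erythropoietin receptor and KIT reach the cell through adaptor proteins and phosphoinositide 3-kinase, and the genes described here include parts of that route and several whose better-known work is in lymphocytes.

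Because the factor family reads CACCC elements, the bases before the transcription start are shown for 5 of the genes. Dnaja4, Pdzk1ip1 and Asb2 are shown because their differences from wild type were of like size in both Klf3-deficient groups, and Grap2 and Prokr1 because they had the largest differences in doubly mutant arrays among the genes with a RefSeq promoter. Asb2 has 2 starts in the table, and both are shown. Dnaja4 also has 2, close together, and the first is shown. Each run is the 250 bases before a start, read 5′ to 3′ on the gene's strand, from RefSeq with assembly GRCm38.p6. Capitals mark CACCC or its reverse complement GGGTG.
Dnaja4, chr9:54699033-54699282, plus strand: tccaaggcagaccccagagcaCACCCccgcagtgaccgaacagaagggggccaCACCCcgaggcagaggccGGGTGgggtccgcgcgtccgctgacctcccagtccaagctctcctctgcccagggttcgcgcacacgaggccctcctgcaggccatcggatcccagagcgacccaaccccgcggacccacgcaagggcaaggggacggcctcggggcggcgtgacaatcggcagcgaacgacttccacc
Pdzk1ip1, chr4:115088458-115088707, plus strand: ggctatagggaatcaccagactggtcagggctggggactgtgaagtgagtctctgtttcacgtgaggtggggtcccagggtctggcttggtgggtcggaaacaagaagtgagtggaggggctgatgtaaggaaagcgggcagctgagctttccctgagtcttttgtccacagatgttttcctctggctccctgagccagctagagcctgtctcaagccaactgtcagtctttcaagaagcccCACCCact
Asb2, promoter 1, chr12:103356002-103356251, minus strand: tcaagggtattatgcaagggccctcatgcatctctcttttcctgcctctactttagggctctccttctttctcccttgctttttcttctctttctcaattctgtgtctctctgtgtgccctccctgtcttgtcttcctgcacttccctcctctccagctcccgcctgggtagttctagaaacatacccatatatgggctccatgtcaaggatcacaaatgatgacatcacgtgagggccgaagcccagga
Asb2, promoter 2, chr12:103338391-103338640, minus strand: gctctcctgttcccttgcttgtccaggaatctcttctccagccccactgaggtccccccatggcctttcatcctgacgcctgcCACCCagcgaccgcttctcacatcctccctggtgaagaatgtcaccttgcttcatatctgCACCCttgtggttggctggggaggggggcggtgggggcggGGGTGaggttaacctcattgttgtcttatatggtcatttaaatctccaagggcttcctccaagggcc
Grap2, chr15:80623233-80623482, plus strand: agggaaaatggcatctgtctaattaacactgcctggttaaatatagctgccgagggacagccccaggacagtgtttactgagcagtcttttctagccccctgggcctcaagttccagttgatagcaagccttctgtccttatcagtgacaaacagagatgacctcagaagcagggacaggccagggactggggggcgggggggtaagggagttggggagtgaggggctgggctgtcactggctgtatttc
Prokr1, chr6:87590744-87590993, minus strand: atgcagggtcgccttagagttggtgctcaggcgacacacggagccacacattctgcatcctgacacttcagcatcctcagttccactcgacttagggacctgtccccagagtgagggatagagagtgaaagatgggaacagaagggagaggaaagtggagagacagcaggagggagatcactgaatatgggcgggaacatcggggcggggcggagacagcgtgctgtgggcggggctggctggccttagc

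The Dnaja4 run holds 3 such elements, the second Asb2 promoter 3 and the Pdzk1ip1 run 1, whereas the first Asb2 promoter and the Grap2 and Prokr1 runs hold 0. The second Dnaja4 promoter, not printed, holds 3 before its start. Of the 10 genes, 8 had an entry in the promoter table, with 13 promoters between them. Icos and Septin1 had none there. Over windows of 300 bases (250 before to 50 after the start, both strands), CACCC was found in 9 of the 13 promoters, from 6 of the 8 genes, and in 57.5% of all 32851 promoters of the table. The wider pattern CCNCNCCC, which can overlap CACCC, was found in 9 of the 13, from 7 of the 8 genes, against 49.5% of all promoters. The Grap2 and Prokr1 windows held 2 and 3 matches of that wider pattern, the second Asb2 window 5 and the first Asb2 window 0. Of the GATA-type letters, AGATAA was found in 2 of the 13 promoters (both of Btnl10) against 11.2% of all, and TGATAA in 2 of the 13 (Grap2 and the second Pik3r1 promoter) against 9.05%. The TATA-type letters TATAAA were in 1 of the 13, the second Pik3r1 promoter, against 13.6% of all. A match describes letters in a window and shows no binding, and a missing match says only that the letters are not in that window. These promoter windows overlap where a gene has starts close together, as for Plaat3 and Btnl10.

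In Klf3-/- arrays the 10 genes differed from wild type by -1.16 to -0.57 (log2 difference), with a median of -0.84 beside -0.01 over all 23410 clusters tested. In doubly mutant arrays they differed by -2.0 to -0.63, with a median of -1.54 beside -0.02 over all clusters. These 2 comparisons share the 4 wild-type arrays. No array of the Klf3-/- group reached the lowest wild-type array for 9 of the 10 genes, the exception being Plaat3, and the same held for 10 of the 10 in the doubly mutant group. Over all clusters, such a lack of overlap on the low side was found for 5.7% in Klf3-/- arrays and 4.75% in doubly mutant arrays. The shares of clusters called lower at an adjusted p under 0.05 were 0.0641% and 1.78%. Since these contrasts chose the genes, nothing is read from their count against those shares.

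The order of the group means was the same for 8 of the 10 genes: wild type highest, then Klf8gt/gt, then Klf3-/-, then doubly mutant. Dnaja4 and Pdzk1ip1 were the exceptions, with Klf3-/- lowest, and for both the arrays of the 2 Klf3-deficient groups overlapped. Wild-type and Klf3-deficient values chose the genes, which favours wild type as the highest group, so the order is a description.

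**Figure D1:**
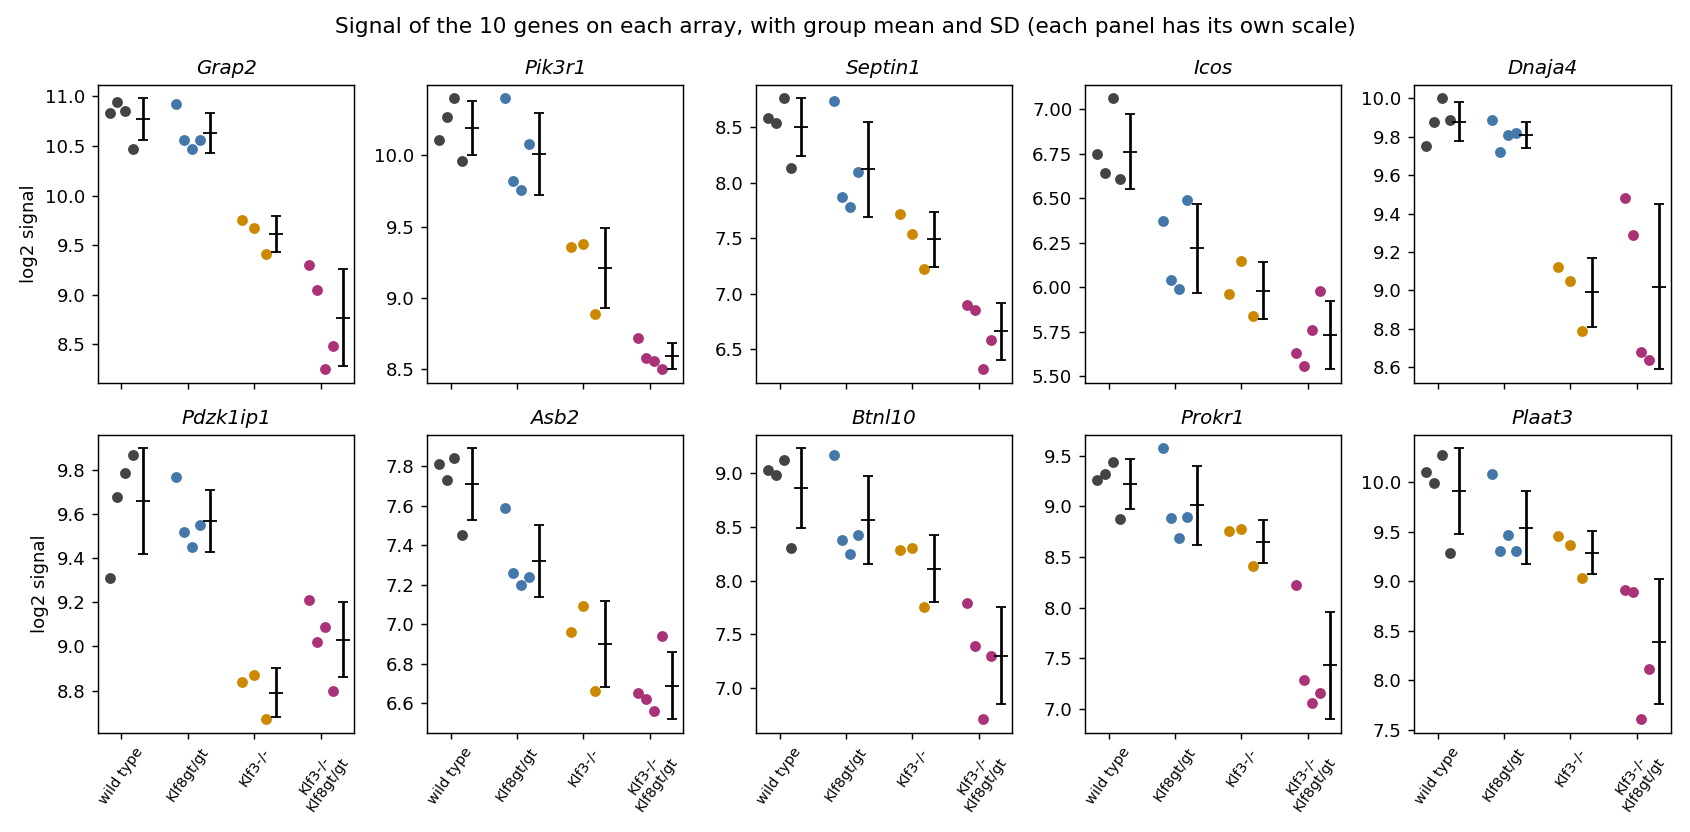
Log2 signal of each gene (vertical axis, its own scale in each panel) on each array (points) of the 4 genotypes (horizontal axis), with the group mean and SD beside the points (n = 4, 4, 3 and 4). All 10 genes are highest in wild type by mean, and 8 of the 10 are lowest in the doubly mutant arrays.

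Grap2 and Pik3r1 act just inside the membrane. Grap2 (transcript cluster 10425410) encodes GADS, an adaptor of the GRB2 family that joins LAT to SLP-76 below immune receptors. Its signal was 10.83, 10.94, 10.85 and 10.47 in wild-type arrays 1 to 4 and 10.92, 10.56, 10.47 and 10.56 in Klf8gt/gt arrays 1 to 4. It was 9.75, 9.67 and 9.41 in Klf3-/- arrays 1 to 3 and 9.30, 9.05, 8.25 and 8.48 in doubly mutant arrays 1 to 4. Every Klf3-deficient array lay below every other array, and the doubly mutant arrays all lay below the Klf3-/- arrays. Grap2 differed from wild type by -1.16 ± 0.21 (log2 difference with its standard error, 2.24-fold lower) in Klf3-/- arrays and by -2.0 ± 0.19 (4-fold) in doubly mutant arrays, the largest difference among the 10 genes in both. Pik3r1 (cluster 10411782) encodes the p85-alpha family of regulatory subunits, which stabilise the catalytic subunits of phosphoinositide 3-kinase and dock them on phosphorylated receptors. Its signal was 10.11, 10.27, 10.40 and 9.96 in wild type and 10.40, 9.82, 9.76 and 10.08 in Klf8gt/gt. It was 9.36, 9.38 and 8.89 in Klf3-/- and 8.72, 8.58, 8.56 and 8.50 in doubly mutant arrays. The doubly mutant arrays were close together, with an SD of 0.09, and lay below every other array. The difference from wild type was -0.98 ± 0.16 (1.97-fold) in Klf3-/- and -1.60 ± 0.14 (3.03-fold) in doubly mutant arrays.

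Icos, Prokr1 and Btnl10 encode cell surface proteins. Icos (cluster 10346799) encodes the inducible T cell co-stimulator, a CD28-family receptor whose cytoplasmic tail recruits phosphoinositide 3-kinase. Its signal was near the array medians: 6.75, 6.64, 7.06 and 6.61 in wild type and 6.37, 6.04, 5.99 and 6.49 in Klf8gt/gt. It was 5.96, 6.15 and 5.84 in Klf3-/- and 5.63, 5.56, 5.76 and 5.98 in doubly mutant arrays. Only the wild-type mean of Icos lay above the array medians, so its differences of -0.78 ± 0.15 in Klf3-/- and -1.03 ± 0.14 in doubly mutant arrays are given without a fold. Defining T cell markers were near background: 10 of 11 measured markers, among them Cd3e, Cd4 and Cd8a, had means below the array medians in every group, and 0 of 11 passed against wild type in any group by limma. Lat, the exception, is also a gene of platelets and their precursors. Prokr1 (cluster 10546024) encodes a G protein-coupled receptor for prokineticins, which signals through Gq. Its signal was 9.26, 9.32, 9.44 and 8.87 in wild type and 9.57, 8.88, 8.69 and 8.89 in Klf8gt/gt. It was 8.76, 8.78 and 8.41 in Klf3-/- and 8.22, 7.29, 7.06 and 7.16 in doubly mutant arrays. Klf3-/- arrays overlapped with Klf8gt/gt arrays, while all 4 doubly mutant arrays lay below both. Prokr1 had the smallest difference of the 10 genes in Klf3-/- arrays, -0.57 ± 0.25 (1.48-fold), and -1.79 ± 0.23 (3.45-fold) in doubly mutant arrays. Btnl10 (cluster 10376434) encodes a butyrophilin-like protein of the immunoglobulin superfamily. It ranged from 8.30 to 9.12 in wild type, from 8.25 to 9.17 in Klf8gt/gt, from 7.75 to 8.30 in Klf3-/- and from 6.71 to 7.79 in doubly mutant arrays. Its lowest wild-type and highest Klf3-/- arrays thus nearly met, and its differences were -0.75 ± 0.26 (1.68-fold) in Klf3-/- and -1.56 ± 0.24 (2.95-fold) in doubly mutant arrays.

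Septin1 and Pdzk1ip1 are structural or scaffold-bound. Septin1 (cluster 10568202) encodes a GTP-binding protein of the septin filaments beneath the membrane. Its signal was 8.58, 8.54, 8.76 and 8.13 in wild type and 8.74, 7.87, 7.78 and 8.10 in Klf8gt/gt. It was 7.72, 7.54 and 7.22 in Klf3-/- and 6.90, 6.85, 6.32 and 6.58 in doubly mutant arrays. Klf8gt/gt array 1 was within the wild-type range, and the other 3 of that group were below it. Septin1 differed from wild type by -1.01 ± 0.21 (2.01-fold) in Klf3-/- and by -1.84 ± 0.20 (3.58-fold) in doubly mutant arrays. Pdzk1ip1 (cluster 10507137) encodes MAP17, a small membrane protein that binds the scaffold PDZK1, and it lies beside Tal1, which encodes a master regulator of blood cell development. Its signal was 9.31, 9.68, 9.79 and 9.87 in wild type and 9.77, 9.52, 9.45 and 9.55 in Klf8gt/gt. It was 8.84, 8.87 and 8.67 in Klf3-/- and 9.21, 9.02, 9.09 and 8.80 in doubly mutant arrays. All Klf3-deficient arrays were below all others, and 3 of the 4 doubly mutant arrays were above every Klf3-/- array. Pdzk1ip1 differed by -0.87 ± 0.13 (1.83-fold) in Klf3-/- and by -0.63 ± 0.12 (1.55-fold) in doubly mutant arrays, the smallest difference of the 10 genes there.

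Dnaja4, Asb2 and Plaat3 work in protein folding, protein turnover and lipid metabolism. Dnaja4 (cluster 10585428) encodes an HSP40 co-chaperone of HSP70. Its signal was 9.75, 9.88, 10 and 9.89 in wild type and 9.89, 9.72, 9.81 and 9.82 in Klf8gt/gt. It was 9.12, 9.05 and 8.79 in Klf3-/- and 9.48, 9.29, 8.68 and 8.64 in doubly mutant arrays. The doubly mutant arrays fell into a higher and a lower pair on either side of the Klf3-/- mean of 8.99. Dnaja4 differed by -0.89 ± 0.17 (1.85-fold) in Klf3-/- and by -0.86 ± 0.16 (1.81-fold) in doubly mutant arrays. Asb2 (cluster 10402325) encodes the subunit through which a cullin-5 ubiquitin ligase recognises filamins. Its signal was 7.81, 7.73, 7.84 and 7.45 in wild type and 7.59, 7.26, 7.20 and 7.24 in Klf8gt/gt. It was 6.96, 7.09 and 6.66 in Klf3-/- and 6.65, 6.62, 6.56 and 6.94 in doubly mutant arrays. Klf8gt/gt array 1 was the only trap array inside the wild-type range. Asb2 differed by -0.80 ± 0.13 (1.75-fold) in Klf3-/- and by -1.02 ± 0.12 (2.02-fold) in doubly mutant arrays. Plaat3 (cluster 10461093) encodes a phospholipase and acyltransferase. It was 10.10, 9.99, 10.27 and 9.29 in wild type and 10.08, 9.31, 9.47 and 9.31 in Klf8gt/gt. It was 9.46, 9.37 and 9.03 in Klf3-/- and 8.91, 8.89, 7.61 and 8.12 in doubly mutant arrays. Wild-type array 4 lay below 2 of the 3 Klf3-/- arrays, so the groups overlapped. Plaat3 differed by -0.62 ± 0.30 (1.54-fold) in Klf3-/- and by -1.53 ± 0.28 (2.88-fold) in doubly mutant arrays.

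Genes just inside and outside the choice show where it lay. Among the largest differences in Klf3-/- arrays, Icos at -0.78 was the last of the 7 genes kept, and Tmem26 (-0.64) and Arrdc2 (-0.59) were among those that followed outside. In doubly mutant arrays Plaat3 at -1.53 was followed by Entpd1 (-1.51) and Cd86 (-1.46), which were not kept. Larger differences that were not kept either were those of Gbp2b (-1.08) and Lipo3 (-1.01) in Klf3-/- arrays. In doubly mutant arrays they were those of Cd5l (-2.54), Cd209f (-1.92), Timd4 (-1.6) and Marco (-1.54). Cd5l, Timd4 and Marco belong to the macrophage markers described below, so the choice passed over macrophage genes with large differences. How far this shaped the relation of the chosen genes to macrophage signal was not tested.

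The doubly mutant arrays carry the Klf8 trap in addition to the Klf3-/- genotype, and the genes divided by how far they lay below the Klf3-/- arrays. Prokr1 differed from the Klf3-/- arrays by a further -1.22 ± 0.25, Plaat3 by -0.90 ± 0.30, Grap2 by -0.84 ± 0.21, Septin1 by -0.83 ± 0.21, Btnl10 by -0.81 ± 0.26 and Pik3r1 by -0.62 ± 0.16. For Icos and Asb2 the further difference was -0.25 ± 0.15 and -0.21 ± 0.13, and for Dnaja4 and Pdzk1ip1 it was 0.03 ± 0.17 and 0.24 ± 0.13. Both groups helped choose the genes, so these differences are given without a test. The sum of the differences in the 2 single mutants was -1.31 for Grap2, where the doubly mutant difference was -2.0, and -0.78 for Prokr1, where it was -1.79. For Dnaja4 the sum was -0.96 and the doubly mutant difference -0.86.

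**Figure D2:**
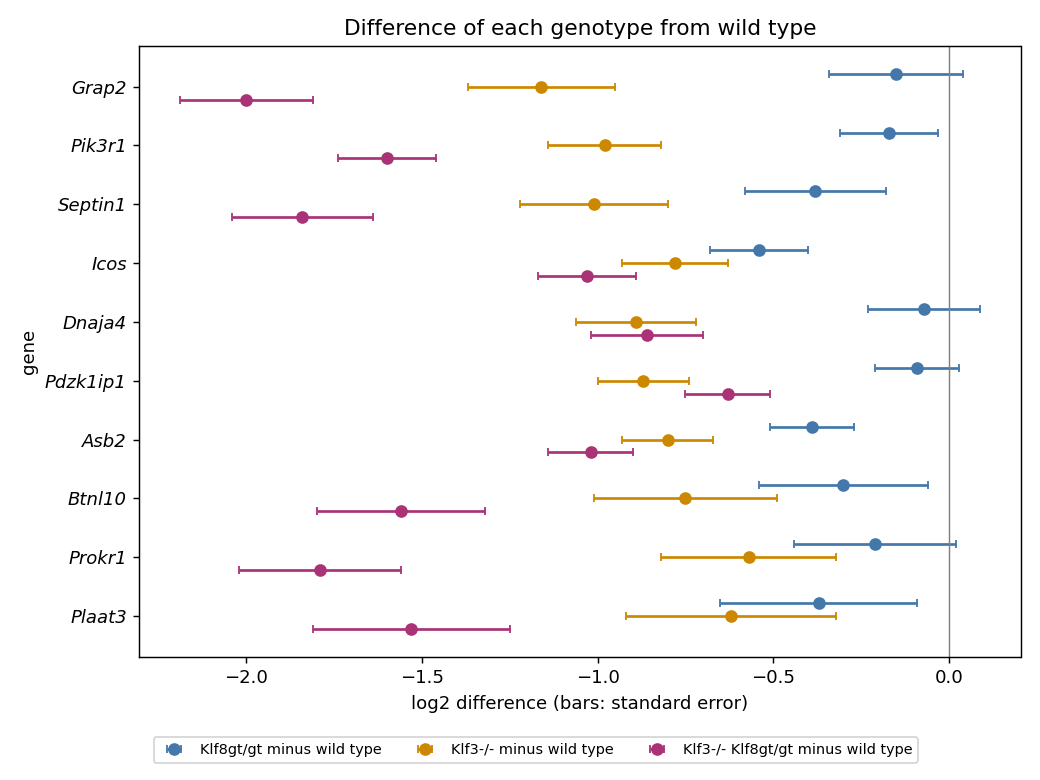
Log2 difference of each mutant genotype from wild type (horizontal axis) for each gene (vertical axis), with bars for the standard error of the fit. Differences in Klf8gt/gt arrays lie between -0.54 and -0.07, those in Klf3-/- arrays between -1.16 and -0.57, and those in doubly mutant arrays between -2.0 and -0.63.

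The Klf8gt/gt arrays were not used to choose the genes, although the wild-type arrays were. With the trap alone, 0 of the 10 genes passed in limma's moderated test with Benjamini-Hochberg adjustment over all clusters, where 0% of clusters passed in either direction. All 10 differences were below 0, from -0.54 to -0.07, with a median of -0.26 beside -0.02 over all clusters. The genes were chosen for wild-type signal above that of Klf3-deficient arrays, which favours differences below 0 from wild type here too. Nothing is therefore read from the shared sign or the median, and the calls given below carry the same limit. Icos (-0.54, adjusted p = 0.251) and Asb2 (-0.39, adjusted p = 0.266) had an unadjusted p under 0.05, as did 3135 clusters in all. Icos was the 1 gene of the 10 whose trap arrays all lay below wild type, and 2.89% of all clusters did so. For the others the adjusted p was 0.411 for Septin1 (-0.38), 0.561 for Plaat3 (-0.37), 0.595 for Btnl10 (-0.30), 0.698 for Prokr1 (-0.21), 0.610 for Pik3r1 (-0.17), 0.749 for Grap2 (-0.15), 0.755 for Pdzk1ip1 (-0.09) and 0.864 for Dnaja4 (-0.07). This outcome rested on trap array 1, in which all 10 genes were above the trap mean, by 0.37 on average. Without that array Septin1 (-0.59, adjusted p = 0.0488), Icos (-0.59, 0.0321) and Asb2 (-0.47, 0.0355) passed by the same limma test, and 1683 clusters passed in all, which is 7.19% of those tested. With arrays weighted by their quality, 4 of the 10 passed, those 3 and Btnl10 (-0.54, adjusted p = 0.0481 by limma), where 17.4% of all clusters passed.

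The Klf3-deficient groups can also be set against the Klf8gt/gt arrays, so that the wild-type arrays play no part. Doubly mutant and Klf8gt/gt arrays differ by the Klf3-/- genotype on a shared trap. Between them Dnaja4 differed by -0.79 ± 0.16 (1.73-fold), Asb2 by -0.63 ± 0.12 (1.55-fold), Pdzk1ip1 by -0.54 ± 0.12 (1.46-fold) and Icos, without a fold, by -0.49 ± 0.14. By limma 3 of these 4 genes were called, Icos being the exception, and 1.87% of all clusters were called lower. The values of both Klf3-deficient groups were in view when the 10 genes were chosen, so this is a description, and nothing is read from the count. It was 0 of 4 in a fit on these 8 arrays alone and 4 of 4 with the Y-linked covariate or without doubly mutant array 4. The share of all clusters called in this comparison was not computed for those settings. Nothing is therefore read from these counts either.

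Klf3-/- against Klf8gt/gt arrays is described in the same way for the genes named from the doubly mutant arrays. Btnl10 differed by -0.45 ± 0.26 (1.36-fold), Prokr1 by -0.35 ± 0.25 (1.28-fold) and Plaat3 by -0.26 ± 0.30 (1.19-fold). By limma 0 of these 3 genes were called, and 0.111% of all clusters were called lower. An unadjusted p under 0.05 was found for 0 of the 3 and for 1563 of the 23410 clusters. The Klf3-/- and Klf8gt/gt arrays of these 3 genes overlapped.

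Macrophages form the centre of the erythroblastic islands of the fetal liver, and signal of their marker genes was lower in doubly mutant arrays. The mean of 15 macrophage markers on an array ranged from 8.93 to 9.23 in wild type, from 8.46 to 9.01 in Klf8gt/gt, from 8.33 to 8.84 in Klf3-/- and from 7.14 to 8.71 in doubly mutant arrays. Of the 15 markers, 7 were lower in doubly mutant arrays and 0 in the other genotypes by limma. Over all clusters, 1.78% were called lower in doubly mutant arrays and 0.0641% in Klf3-/- arrays. Among the 4 doubly mutant arrays the mean was 7.14, 7.99, 7.89 and 8.71, and array 1, with the least macrophage signal, had the highest signal of Grap2, Pik3r1, Septin1, Dnaja4, Pdzk1ip1, Btnl10, Prokr1 and Plaat3 of its group. In bulk samples such as these, fewer cells of a type and less RNA per cell cannot be told apart.

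After the group means were taken out, the Pearson correlation with the macrophage mean over 15 arrays ranged from -0.50 for Dnaja4 to 0.65 for Icos, with a median of -0.13 over the 10 genes. Asb2 at 0.49 was nearest to Icos, while Grap2 (-0.37) and Prokr1 (-0.39) were among the 6 genes below 0. Spearman's rho ran from -0.14 to 0.64. Without doubly mutant arrays 1 and 4, farthest from their group mean in macrophage signal, the correlations ran from 0.26 to 0.74, with a median of 0.43. With the macrophage mean as a covariate, the doubly mutant difference became smaller for Icos, from -1.03 to -0.64, and for Asb2, from -1.02 to -0.75. It became larger for Grap2 (-2.33), Prokr1 (-2.21), Plaat3 (-1.80) and Dnaja4 (-1.21), and changed little for Septin1 (-1.81), Btnl10 (-1.62) and Pik3r1 (-1.53). Pdzk1ip1 was at -0.79. In Klf3-/- arrays the differences with this covariate lay between -1.28 (Grap2) and -0.65 (Icos). Against trap arrays, the doubly mutant differences with this covariate were -1.04 for Dnaja4, -0.66 for Pdzk1ip1, -0.44 for Asb2 and -0.21 for Icos. The part of macrophage RNA in the differences beyond these values was not tested.

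The erythroid markers varied with most of these genes from array to array. Their mean ranged from 12.46 to 12.66 in wild type, from 12.33 to 12.64 in Klf8gt/gt, from 12.28 to 12.48 in Klf3-/- and from 12.06 to 12.57 in doubly mutant arrays. By limma 2 of the 12 were lower in doubly mutant arrays, where 1.78% of all clusters were called lower. Within groups the correlation with the erythroid mean was 0.94 for Grap2 and Prokr1, 0.86 for Dnaja4, 0.85 for Btnl10, 0.84 for Plaat3, 0.80 for Septin1 and 0.73 for Pik3r1. It was 0.50 for Pdzk1ip1, 0.37 for Asb2 and 0.04 for Icos. Without doubly mutant array 1 and trap array 1, which lay farthest from their group means, it was 0.91 for Grap2, 0.85 for Prokr1 and 0.26 for Pdzk1ip1. The points share library and array, and the relation was looked at after the values had been seen. With the erythroid mean as a covariate, the doubly mutant differences became smaller for all 10 genes, to -1.40 for Grap2, -1.31 for Septin1, -1.26 for Pik3r1, -1.04 for Prokr1, -0.73 for Plaat3 and -0.42 for Dnaja4, while Icos stayed at -1.01. In Klf3-/- arrays Prokr1 came to -0.20 and Plaat3 to -0.23, and Grap2 to -0.87. The part of the erythroid signal in the differences beyond these values was not tested.

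**Figure D3:**
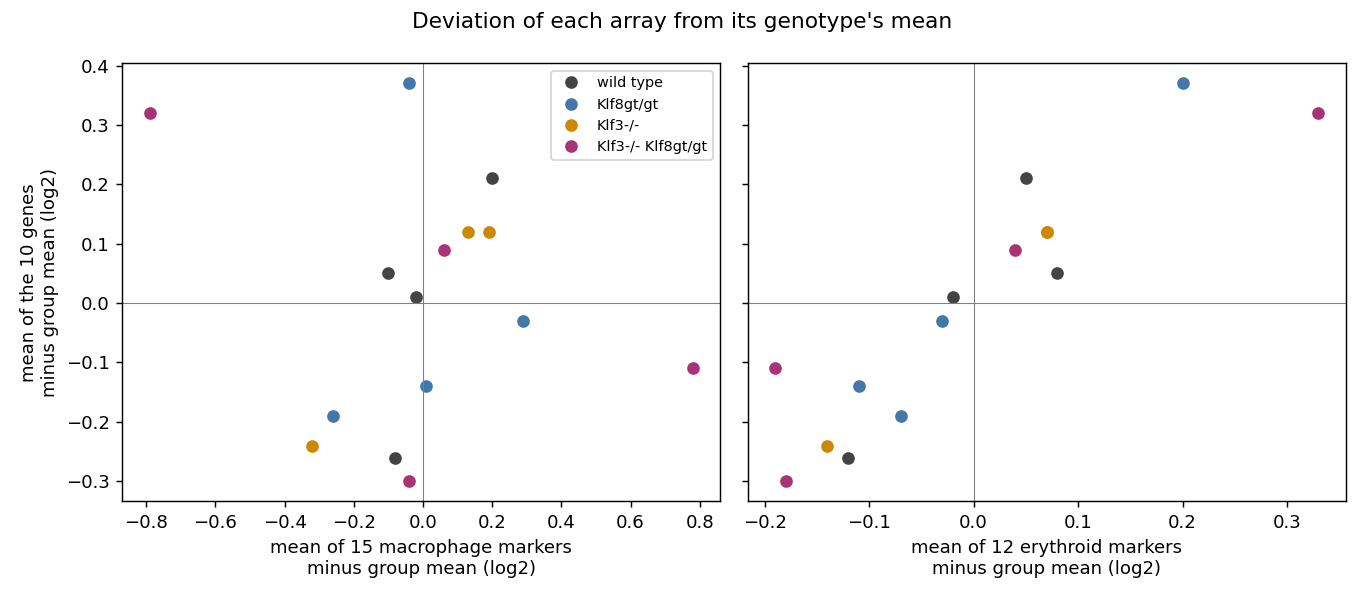
Mean of the 10 genes on each array minus its genotype's mean (vertical axis, log2) against the same deviation of 15 macrophage markers (left) and of 12 erythroid markers (right, on a narrower scale), 1 point an array, coloured by genotype, with 2 Klf3-/- points coinciding on the right. Doubly mutant array 1 is at 0.32 for the 10 genes with a macrophage deviation of -0.79 and an erythroid deviation of 0.33.

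**Figure D4:**
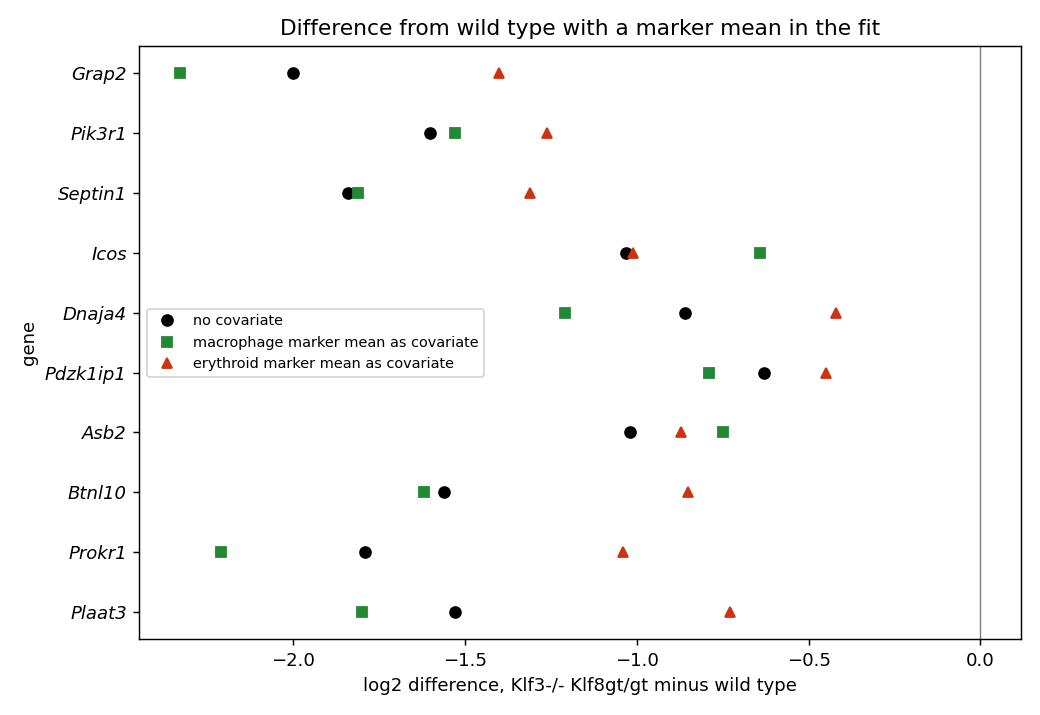
Log2 difference of doubly mutant arrays from wild type (horizontal axis) for each gene (vertical axis), in a fit with no covariate (circles), with the macrophage marker mean (squares) or with the erythroid marker mean (triangles). Icos moves from -1.03 to -0.64 with the macrophage mean, and Prokr1 from -1.79 to -1.04 with the erythroid mean.

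The 10 genes did not vary as 1 block within genotypes. Over the 45 pairs the within-group correlation (Pearson, 15 arrays) ranged from -0.18 to 0.94 with a median of 0.59, and 42 pairs were above 0. Septin1 and Btnl10 (0.94), Grap2 and Plaat3 (0.93) and Btnl10 and Plaat3 (0.91) were the closest pairs. Icos varied apart from Dnaja4 (-0.18) and Grap2 (-0.05) and was nearest to Asb2 (0.64). Pdzk1ip1 was nearest to Dnaja4 (0.56) and apart from Asb2 (-0.07). Whole arrays moved with this: the mean deviation of the genes was 0.37 in trap array 1, 0.32 in doubly mutant array 1 and 0.21 in wild-type array 3, against -0.30 in doubly mutant array 3, -0.26 in wild-type array 4 and -0.24 in Klf3-/- array 3.

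**Figure D5:**
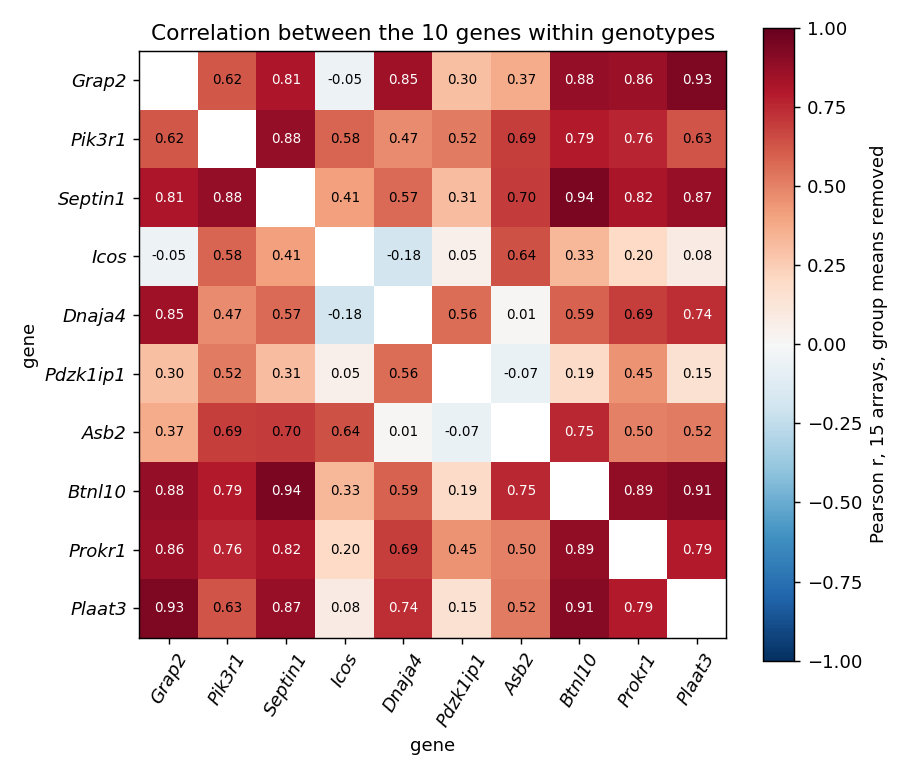
Pearson correlation between each pair of the 10 genes (both axes) over 15 arrays after the genotype means were taken out, from -1 (blue) to 1 (red). Septin1, Btnl10, Plaat3, Grap2 and Prokr1 pair with each other at 0.79 to 0.94, while the Icos pairs reach from -0.18 to 0.64.

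The 5 genes outside the list that followed the mean pattern of the 10 genes most closely among 12244 candidates above the median signal, by Pearson correlation over the 15 arrays with the group differences left in, were Pcx (0.982), Unkl (0.979), Ttc39a (0.966), Galnt1 (0.965) and Hspbap1 (0.961). Pcx, which encodes pyruvate carboxylase, was also nearest to Grap2 (0.963), and Galnt1, a glycosyltransferase gene, to Septin1 (0.979). Ldlrad4 was nearest to Pik3r1 (0.971), Pcyt1b to Btnl10 (0.982) and Plaat3 (0.973), and Eef2k, the kinase of elongation factor 2, to Prokr1 (0.986). Arrdc2 was nearest to Dnaja4 (0.940) and Pdzk1ip1 (0.920), Tmem26 to Icos (0.967) and Gfap to Asb2 (0.952). The correlation with the 10 genes was the measure that picked them, so it is a description.

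Other genes of the pathways were tested in the same way. The 10 lists named 153 partners and relatives, of which 142 were measured. In Klf3-/- arrays 0 of the 142 passed by limma in either direction, where 0.0641% of clusters were called lower and 0.521% higher. An unadjusted p under 0.05 was found for 13 of the 142 and for 1832 of the 23410 clusters. In doubly mutant arrays 5 fell and 0 rose, where 1.78% of clusters were called lower and 1.52% higher. The count of 5 rested on single arrays: it was 3 without wild-type array 2 or 3, and 9 without trap array 1, doubly mutant array 1 or doubly mutant array 4. The share of all clusters called in either direction moved alike, from 3.3% to 1.72% and 1.63%, and to 4.18%, 5.93% and 4.82%. With the trap alone 0 passed by limma, and 15 of the 142 had an unadjusted p under 0.05, as did 3135 of the 23410 clusters. Without trap array 1 the count that passed was 9, where 7.19% of all clusters passed.

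Of the phosphoinositide 3-kinase pathway, 2 of 26 measured genes fell in doubly mutant arrays. Pik3ap1, which encodes the adaptor BCAP, went from 8.72 ± 0.03 to 8.12 ± 0.30 (SD, n = 4 each), a fall of 0.59 ± 0.14 (1.51-fold, adjusted p = 0.0252 by limma). Pik3r3, another regulatory subunit gene, fell by 0.41 ± 0.10 (adjusted p = 0.0404 by limma), with its doubly mutant mean around the array medians. The 4 class I catalytic subunit genes did not pass by limma: Pik3cg was at -0.49 ± 0.19 (adjusted p = 0.189), Pik3cb at -0.26 ± 0.11 (0.227), Pik3ca at -0.18 ± 0.07 (0.196) and Pik3cd at -0.18 ± 0.11 (0.417). Of the ICOS and CD28 family with its ligands, 1 of 8 fell: Cd86, a ligand on antigen-presenting cells, went from 8.49 ± 0.17 to 7.03 ± 0.73 (SD, n = 4 each), a fall of 1.46 ± 0.27 (2.75-fold, adjusted p = 0.00596 by limma). The ICOS ligand gene Icosl differed by 0.16 ± 0.16 (adjusted p = 0.676 by limma). Of the chaperones 1 of 19 fell: Dnajb2, another HSP40 gene, went from 9.23 ± 0.17 to 8.22 ± 0.45 (SD, n = 4 each), a fall of 1.02 ± 0.17 (2.02-fold, adjusted p = 0.00315 by limma). In Klf3-/- arrays Dnajb2 differed by -0.65 ± 0.19 (adjusted p = 0.230 by limma). Of the phospholipase list 1 of 8 fell: Pla2g7, the platelet-activating factor hydrolase gene, by 0.96 ± 0.19 (1.95-fold, adjusted p = 0.00855 by limma).

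The 5 genes changed unequally when a marker mean was in the fit. With the macrophage mean as a covariate, Cd86 was at -0.22 (adjusted p = 0.343 by limma), Pik3ap1 at -0.07 (0.809) and Pla2g7 at -0.37 (0.402). Pik3r3 kept most of its size at -0.37 but did not pass (0.255), and Dnajb2 was at -1.52 (0.00543). With the erythroid mean as a covariate, Dnajb2 was at -0.48 (adjusted p = 0.0147 by limma), Cd86 at -1.85, Pla2g7 at -1.19, Pik3ap1 at -0.74 and Pik3r3 at -0.53. Dnajb2 passed in 28 of 28 alternative settings, Cd86 and Pla2g7 in 26, Pik3ap1 in 22 and Pik3r3 in 11.

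The remaining lists had 0 genes past the threshold in any genotype, and the gene with the smallest p is given for each. Of 28 adaptor and SLP-76 pathway genes it was Vav1 (-0.57 ± 0.17 in doubly mutant arrays, adjusted p = 0.0848 by limma). The direct partners of GADS, Lcp2, which encodes SLP-76, and Lat, were at -0.48 ± 0.22 (0.263) and -0.02 ± 0.20 (0.971) in doubly mutant arrays. Of 24 genes of the ASB family, its ligase and the filamins it was Cul5 (-0.27 ± 0.07 in doubly mutant arrays, adjusted p = 0.0576 by limma), and the filamin gene Flna was at 0.49 ± 0.20 (0.200). Of 11 other septins it was Septin6 (0.25 ± 0.11 in doubly mutant arrays, 0.228). Of 9 prokineticin and Gq genes it was Plcb1 (0.46 ± 0.14 in doubly mutant arrays, 0.0976). The ligand genes Prok1 and Prok2 were below the array medians in wild type. Of 6 butyrophilin genes it was Btnl2 (-0.45 ± 0.13 in trap arrays, 0.251), and Ermap, an erythroid relative, was at -0.13 ± 0.10 (0.567) in doubly mutant arrays. Of 3 PDZK1 and NHERF scaffold genes it was Pdzk1 (0.66 ± 0.15 in trap arrays, 0.221).

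The nearest protein-coding genes on either side of each gene, from the order in the RefSeq table, showed whether whole neighbourhoods were lower. All 20 neighbours were measured. Wild-type means of Cyp4x1 (4.88), Ctla4 (4.89), Fam83f (5.42), Lgals12 (5.69), Acsbg1 (5.94), Enthd1 (6.08) and Fam181a (6.21) lay below the array medians. A fall could hardly be seen in these genes. In Klf3-/- arrays 0 of the 20 passed by limma, where 0.0641% of clusters were called lower and 0.521% higher. In doubly mutant arrays 1 of the 20 fell, where 1.78% of clusters were called lower. That gene was Otub2 beside Asb2, which fell by 0.78 ± 0.20 (adjusted p = 0.0489 by limma), after -0.56 ± 0.22 (0.539) in Klf3-/- arrays. Tal1, beside Pdzk1ip1, was at -0.36 ± 0.16 (adjusted p = 0.619 by limma) in Klf3-/- arrays and at -0.56 ± 0.15 (0.0501) in doubly mutant arrays. Ctla4, the CD28-family gene beside Icos, was at -0.04 ± 0.14 and -0.01 ± 0.13 in the same comparisons. The neighbours of Grap2, Enthd1 and Fam83f, were below the array medians in wild type and differed by -0.17 ± 0.10 and 0.09 ± 0.10 in doubly mutant arrays. Cd180 beside Pik3r1 was at -0.83 ± 0.25 (adjusted p = 0.0854 by limma), and Slc30a5 on its other side at -0.07 ± 0.16. The other 13 neighbours had differences from wild type of -0.43 to 0.52 in doubly mutant arrays, and 0 of them passed.

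Arrays also differed in Y-linked signal, which follows the sex of the embryos. The Y-linked mean was between 8.54 and 8.69 in all 4 wild-type arrays, whereas 2 of 4 trap arrays, 1 of 3 Klf3-/- arrays and 2 of 4 doubly mutant arrays were above 8, and the rest were below 5. With that mean as a covariate the 10 differences lay between -1.13 (Pik3r1) and -0.49 (Plaat3) in Klf3-/- arrays and between -1.92 (Grap2 and Septin1) and -0.65 (Pdzk1ip1) in doubly mutant arrays.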

How the data were processed

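The authors deposited a table of log2 signal, 1 value for each transcript cluster and array. Partek and RMA appear among the tools of the submitters' processing notes, without versions, and the clusters' genome build is not given. Clusters were named from the platform's annotation. limma 3.58.1 in R 4.3.3 (lmFit and eBayes, no trend) was fitted to all 15 arrays over the 23410 clusters with a symbol, with 1 mean per genotype and Benjamini-Hochberg adjustment over all of them, and an adjusted p under 0.05 counted as passed. The script was tested on simulated data. The median standard error was 0.11 between groups of 4 and 0.12 with the group of 3; the number of arrays limits the precision.

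The 10 genes, the pathway and marker lists and the tests were chosen with earlier results of these data known. Genes named are the 10, every list gene that passed, otherwise the list gene with the smallest p, the nearest protein-coding neighbours and the best correlated genes. A list gene with several clusters was represented by its brightest. Lists covered macrophage, erythroid, T and B lymphoid, megakaryocyte, granulocyte, mast cell, hepatocyte, endothelial, stromal and progenitor markers. B lymphoid (7 of 7 measured) and mast cell (8 of 8) markers were below the array medians in every group. Megakaryocyte means ranged from 8.94 to 10.71, granulocyte from 5.85 to 6.85, endothelial from 7.72 to 8.97, stromal from 8.72 to 9.33 and progenitor from 7.09 to 7.50.

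Same-numbered arrays were checked for pairing by the correlation of their deviations from group means. Every pair was above 0.1 only for doubly mutant against Klf8gt/gt arrays (0.114 to 0.534), from the data and not from the labels. Alternatives left out each array, used quantile normalization, array weights, covariates, filters, the replicate block or only 2 groups.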

Additional observations from a re-analysis of the deposited data

Results flagged for a closer look

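Asb2 in Klf8gt/gt array 1, at 7.59, lay far above the other 3 trap arrays (7.20 to 7.26): its gap to the nearest was 0.864 of the group's range, above Dixon's 95% limit for 4 values. It was 1 of 30 gene and group combinations of 4 arrays examined, and chance gives such a gap in about 1 in 20.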

How the results depend on the processing

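The differences of the 10 genes from wild type, their medians and the pathway results were recomputed under 28 alternatives. So were the comparisons of the genes named above with Klf8gt/gt arrays. Icos had 27, since a filter on clusters below the median removed it. Correlations, neighbours, marker lists and differences between the 2 Klf3-deficient groups were not recomputed. With arrays weighted, the count of the 10 genes past the threshold in Klf8gt/gt against wild type went from 0 to 4, and the pathway genes past it were 2 in Klf3-/-, 9 in doubly mutant and 34 in Klf8gt/gt arrays, where 2.55%, 4.69% and 17.4% of all clusters passed. In fits on only the 2 groups compared, 0 of 4 genes passed in doubly mutant against Klf8gt/gt arrays, and 2 pathway genes in Klf3-/- and 1 in doubly mutant arrays (2.05% and 1.26% of all clusters). Without doubly mutant array 1 and Klf8gt/gt array 1 together, 3 of the 10 genes passed in Klf8gt/gt, and 1, 18 and 19 pathway genes in Klf3-/-, doubly mutant and Klf8gt/gt arrays, where 1.26%, 9.65% and 12.5% of all clusters passed. The macrophage covariate left 1 of 4 genes in doubly mutant against Klf8gt/gt. That covariate gave 1 pathway gene in Klf3-/- and 2 in doubly mutant arrays, where 0.679% and 1.12% of all clusters passed. For doubly mutant against Klf8gt/gt arrays, the share of all clusters called was not computed under the alternatives. Nothing is read from the counts of genes passing in that comparison. The erythroid covariate, chosen after seeing the data, moved the median doubly mutant difference of the 10 genes from -1.54 to -0.94. The same covariate gave 2 pathway genes in Klf3-/- arrays, where 1.04% of all clusters passed. It also turned the Klf8gt/gt differences of Grap2 (0.11), Dnaja4 (0.12) and Prokr1 (0.10) above 0, and the Y-linked covariate turned that of Dnaja4 (0.01), none of which had passed. The cause of these changes was not tested. Leaving out 1 array at a time gave 0 to 3 of the 10 genes in Klf8gt/gt. It gave 0 to 1, 3 to 9 and 0 to 9 pathway genes in Klf3-/-, doubly mutant and Klf8gt/gt arrays. Over all clusters, these settings called 0.261% to 0.769%, 1.63% to 5.93% and 0% to 7.19% in the same comparisons. The counts of 3 and of 9 in Klf8gt/gt came without its array 1, where 7.19% of all clusters passed. The count of 1 in Klf3-/- came without doubly mutant array 1, where 0.739% passed. With the replicate block, 3 of 4 genes passed in doubly mutant against Klf8gt/gt, as without it, and 3 did so with the block on those 8 arrays alone, a setting added after seeing the data. The differences of all 10 genes from wild type in both Klf3-deficient genotypes stayed below 0 in every alternative. Since these contrasts chose the genes, that sign is a description. The number of arrays and signals near the array medians, as for Icos, limit what can be seen.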
